A study of Mus musculus with 8 samples.

Results

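Mitochondrial ribosomal protein genes were taken from the deposited table as the protein-coding genes whose symbol starts with Mrpl or Mrps and a digit. The rule found 78 of 54532 genes, of which 49 carry large subunit names (Mrpl) and 29 small subunit names (Mrps). All are encoded in the nucleus, on 17 chromosomes. Of these 78 members, 77 had a mean FPKM of at least 0.5 over the libraries and could be tested, and Mrpl53 was left out with 0 reads in every library. The members were listed by name, with no filter on measured values, but earlier results of these data were known when the group was chosen.

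The libraries came from the inguinal white fat pad (iWAT), a subcutaneous depot, of male mice kept on a diet high in fat (HFD). The KLF10AKO group (n = 4) lacks the transcription factor KLF10 in adipocytes, and the wild type group (WT, n = 4) was fed the same diet. The comparison asks which transcripts differ in iWAT when adipocytes lack KLF10. The sources used here give neither the Cre driver, the deleted exons and the ages nor the animal behind each library, and p-values therefore rest on the spread between the libraries, which may be technical. The unit is the authors' FPKM, a count of fragments divided by gene length and by a library size that had been scaled between samples. Reads recovered from the FPKM came to 15537863 to 17499132 per library, and a tested member had between 139 and 2211 of them in a library. A member was called higher or lower when limma's two-sided test on log2(FPKM + 0.5) gave a Benjamini-Hochberg adjusted p under 0.05 over all 16012 genes tested.

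The mitochondrial ribosome makes the few proteins encoded by mitochondrial DNA, which are core subunits of the respiratory chain and of ATP synthase. Its ribosomal RNAs come from the mitochondrial genome, while every one of its proteins is made in the cytosol from a nuclear gene and imported. Some of these proteins have counterparts in bacterial ribosomes and the others are found in mitochondria alone. In white fat cells the respiratory chain that depends on this ribosome supplies energy for lipid synthesis and storage.

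The labels and the tissue were read first. Klf10 had 9.39, 9.68, 9.75 and 9.59 FPKM in KLF10AKO libraries, against 16.7, 18.2, 16.7 and 21.1 FPKM in WT libraries, a log2 change of -0.88 (SE 0.0781, limma adjusted p = 8.96e-06) that turned to 0.67 after scaling to adipocyte markers; a gene-level value does not read the deleted part on its own. The 14 adipocyte markers were above 0 in all 8 libraries and summed to 5009 to 6292 FPKM in KLF10AKO against 14473 to 16589 FPKM in WT, and 14 of 14 passed as lower. All 11 B cell and all 12 T and NK cell markers passed as higher, with sums of 2185 to 3099 and 431 to 622 FPKM in KLF10AKO, against 132 to 262 and 8.27 to 10.1 FPKM in WT. The 12 skeletal muscle markers summed to 6264, 4746, 11064 and 63.9 FPKM in KLF10AKO replicates 1 to 4, against 174 to 231 FPKM in WT. The 7 trophoblast markers (Prl3b1, Prl8a9, Prl2c5, Psg21, Psg23, Ctsq and Tpbpa) were at 0 in every KLF10AKO library and summed to 21.4 to 55.7 FPKM in WT. The part of these other cell types in the results on the members was not tested, and in bulk tissue fewer cells of a type and less RNA per cell cannot be told apart.

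On the scale of the authors' FPKM most mitochondrial ribosomal protein genes had close levels in KLF10AKO and WT iWAT, with Mrps6 far lower in KLF10AKO. Of the 77 members tested, 8 were higher and 34 lower in KLF10AKO iWAT and 35 did not pass, so 54.5% were called, against 74.3% of all 16012 genes tested. Among all genes, 39.4% were called higher and 34.9% lower, while 10.4% of the members were called higher and 44.2% lower. The median log2 change of the members was -0.15, beside 0.05 over all genes tested, and the median size of the change was 0.29, beside 0.62. A change of at least 2-fold was seen in 1 member, Mrps6, and in 30.0% of all genes, and 69 of the 77 members had a log2 change under 0.5 in size. All 4 KLF10AKO values lay above all 4 WT values for 7 members and below them for 26 members, where the same held for 36.2% and 33.0% of all genes.

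**Figure D1:**
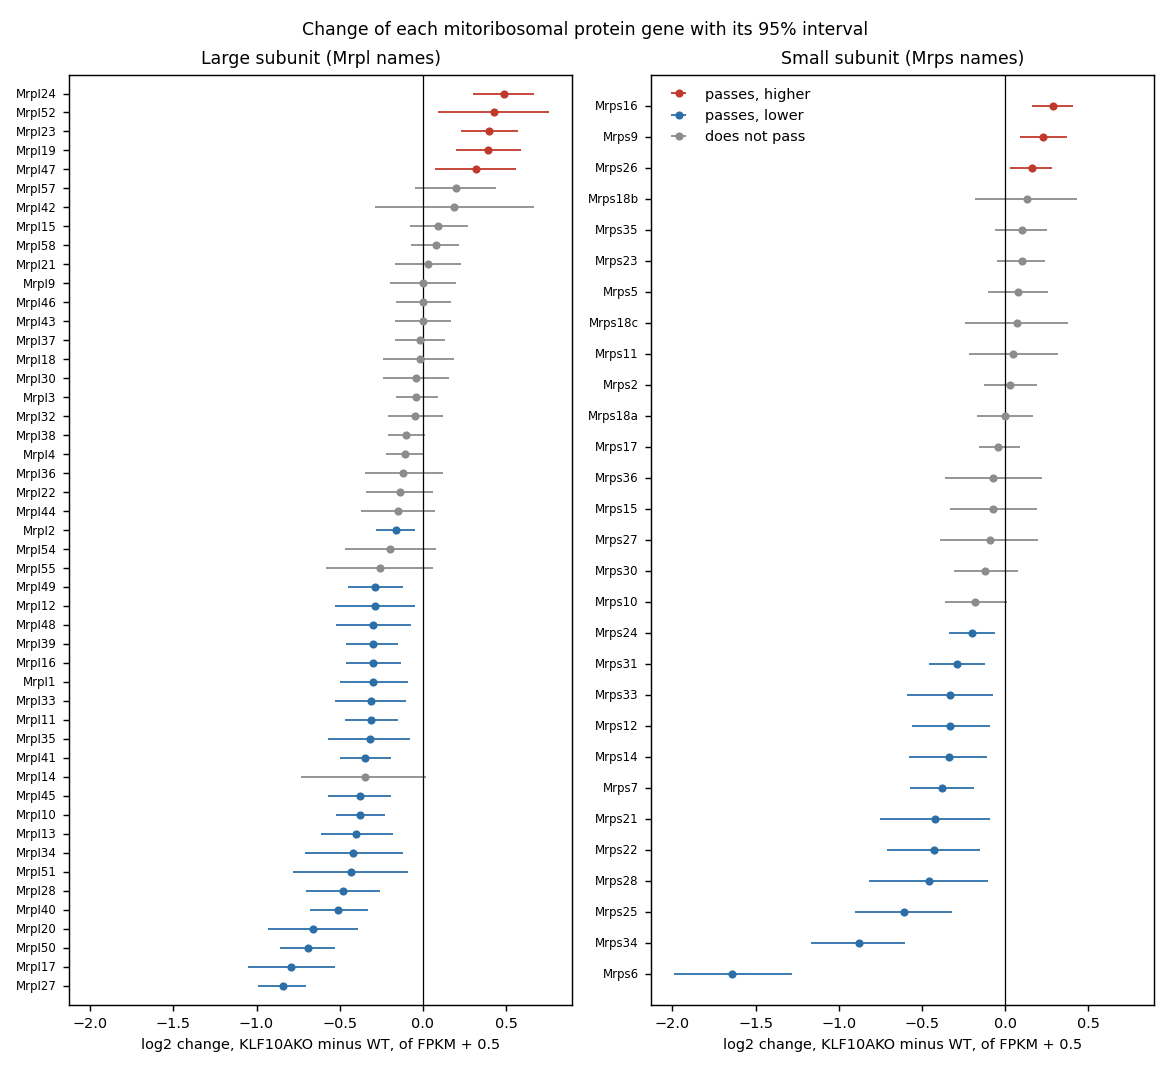
Points are the log2 change (KLF10AKO minus WT, of FPKM + 0.5) of the 77 members tested and bars its 95% interval from limma, with Mrpl names on the left and Mrps names on the right. Most points lie within 0.5 of 0, Mrps6 stands alone at -1.64, and Mrpl24 is the highest at 0.49; these are changes on the scale of the authors' FPKM, and many change sign under adipocyte marker scaling.

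The side of 0 on which the members lay depended on how the libraries were scaled to each other. With TPM 14 members were higher and 8 lower (all genes 44.0% and 25.4%) and the median was 0.05, beside 0.25 for all genes. With limma's voom on the recovered reads 23 were higher and 9 lower (all genes 46.2% and 27.5%) and the median was 0.07, beside 0.27. With quantile normalization 4 were higher and 41 lower (all genes 30.9% and 44.1%) and the median was -0.24, beside -0.16. When each library was scaled to its 14 adipocyte markers, 76 of 77 members passed as higher at a median of 1.41, and of all genes 86.9% were higher and 1.39% lower at a median of 1.43. The member median thus lay below that of all genes by 0.20 with FPKM, 0.19 with TPM, 0.20 with voom, 0.08 with quantile normalization and 0.01 with adipocyte marker scaling. Scaled to the mean of the members themselves, a choice made after seeing the data, 17 members were higher and 14 lower (all genes 44.6% and 28.2%). When KLF10AKO was reduced to replicate 4, assumed to vary like WT, 3 members were higher and 23 lower (all genes 32.4% and 29.7%) at a median of -0.22. The 8 higher calls numbered 5 without WT replicate 1 and 5 without KLF10AKO replicate 2. Of all genes tested, 71.0% and 70.6% were called in these fits, against 74.3% with every library in.

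**Figure D2:**
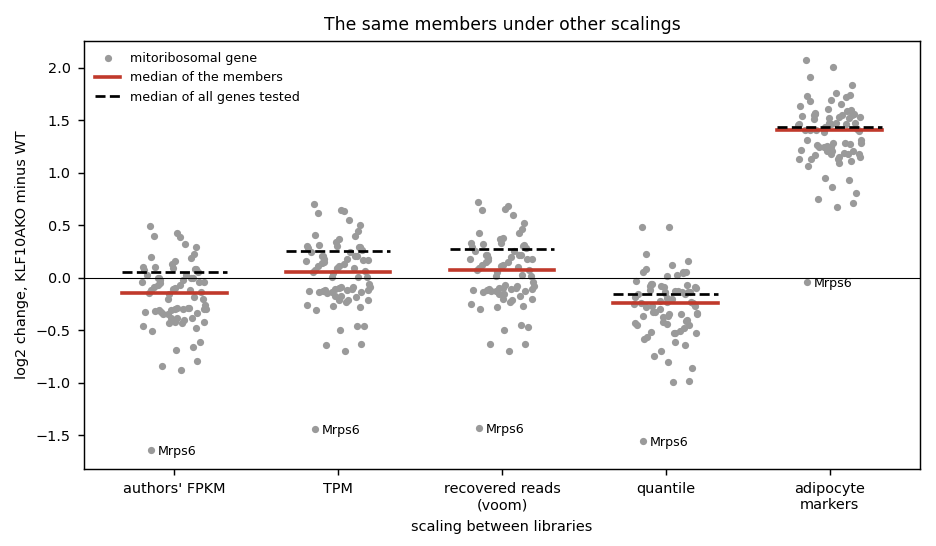
Each grey point is the log2 change (KLF10AKO minus WT) of 1 member under 5 scalings between libraries, with the member median in red and the median of all genes tested as a dashed line. The member median is -0.15, 0.05, 0.07, -0.24 and 1.41 from left to right, and Mrps6 lies below every other member in each scaling.

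The calls shared by FPKM, TPM, voom and quantile normalization were 4 higher members, Mrpl23, Mrpl24, Mrpl52 and Mrps16, and 8 lower members, Mrpl17, Mrpl20, Mrpl27, Mrpl40, Mrpl50, Mrps6, Mrps25 and Mrps34. The share of all genes tested with such shared calls was not counted, so these numbers describe the members alone. The groups of Mrpl52 overlapped, at 38.9, 42.8, 39.7 and 42.9 FPKM in KLF10AKO against 27.1, 42.7, 29.4 and 25.1 FPKM in WT (exact permutation p = 0.0857). With adipocyte marker scaling, the 4 higher members were higher as well, and of the 34 members lower by FPKM 33 passed as higher, Mrps6 being the exception. Of all genes tested, 86.9% were higher by that scaling.

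Promoters are shown for 5 members whose results are described next: the largest fall (Mrps6), large subunit members that fell (Mrpl27 and Mrpl17), the largest rise (Mrpl24), and Mrps12, whose window also holds the start of a neighbouring gene. Each window is 300 bases of RefSeq sequence (GRCm38.p6), 250 before the annotated start and 50 from it, written 5′ to 3′ on the strand of the gene. Capitals mark matches on either strand to an ETS core (CCGGAAG), an NRF1 core (GCATGCG) or a GC box (GGGCGGG).
Mrps6 (chr16:92058086-92058385, plus strand): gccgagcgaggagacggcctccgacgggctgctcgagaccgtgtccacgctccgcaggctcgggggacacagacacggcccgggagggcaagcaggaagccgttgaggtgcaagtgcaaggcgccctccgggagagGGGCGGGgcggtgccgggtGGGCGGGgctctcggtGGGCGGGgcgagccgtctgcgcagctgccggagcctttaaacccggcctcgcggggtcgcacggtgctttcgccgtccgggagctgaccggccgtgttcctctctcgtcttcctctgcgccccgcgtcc
Mrpl27 (chr11:94653541-94653840, plus strand): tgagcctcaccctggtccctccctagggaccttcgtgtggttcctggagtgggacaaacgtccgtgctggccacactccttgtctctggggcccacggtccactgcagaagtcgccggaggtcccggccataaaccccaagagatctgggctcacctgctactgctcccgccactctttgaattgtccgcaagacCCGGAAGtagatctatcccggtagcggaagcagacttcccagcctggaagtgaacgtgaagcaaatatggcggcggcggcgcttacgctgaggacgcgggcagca
Mrpl17 (chr7:105811038-105811337, minus strand): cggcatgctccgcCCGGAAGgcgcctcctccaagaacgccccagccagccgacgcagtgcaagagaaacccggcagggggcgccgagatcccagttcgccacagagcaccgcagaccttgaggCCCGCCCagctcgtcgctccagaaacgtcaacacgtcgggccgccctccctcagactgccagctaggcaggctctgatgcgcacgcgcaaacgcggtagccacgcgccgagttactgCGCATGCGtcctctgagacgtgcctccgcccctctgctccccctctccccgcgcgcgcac
Mrps12 (chr7:28741772-28742071, minus strand): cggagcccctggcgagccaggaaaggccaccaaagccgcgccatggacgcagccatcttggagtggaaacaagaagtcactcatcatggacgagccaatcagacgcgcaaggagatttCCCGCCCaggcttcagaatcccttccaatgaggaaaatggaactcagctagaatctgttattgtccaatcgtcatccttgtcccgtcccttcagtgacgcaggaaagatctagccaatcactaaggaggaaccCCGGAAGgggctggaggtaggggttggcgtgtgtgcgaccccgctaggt
Mrpl24 (chr3:87919294-87919593, plus strand): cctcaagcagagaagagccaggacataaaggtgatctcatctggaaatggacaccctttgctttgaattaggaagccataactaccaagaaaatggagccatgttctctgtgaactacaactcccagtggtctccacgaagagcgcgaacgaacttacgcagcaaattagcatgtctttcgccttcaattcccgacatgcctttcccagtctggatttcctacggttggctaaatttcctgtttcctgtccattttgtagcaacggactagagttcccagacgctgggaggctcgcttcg
The Mrps6 window holds 3 GC boxes, that of Mrpl27 1 ETS core, and that of Mrps12 1 ETS core and 1 GC box. The Mrpl17 window holds 1 ETS core, 1 GC box and an NRF1 core whose letters match on both strands at overlapping positions, counted as 2 matches. None of the 6 motifs searched is in the Mrpl24 window.

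A window was at hand for 69 of the 78 members, and a gene with several windows was counted once if any held the motif. The ETS core, the letters read by factors such as GABPA, was in 26 of the 69 members (37.7%), against 12.9% of 17492 protein-coding genes. The NRF1 core was in 8 (11.6%, against 4.96%), and the YY1 core (GATGGCG) in 8 (11.6%, against 4.95%). The GC box was in 29 (42.0%, against 36.9%), the E-box (CACGTG) in 5 (7.25%, against 8.91%), and the ERR core (AAGGTCA) in 4 (5.80%, against 4.73%). Among the members with a window, the ETS core was held by 3 of 7 that passed as higher, 10 of 31 that passed as lower and 12 of 30 that did not pass. A match is a run of letters and not a measured binding site, and the counts are a description with no test.

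Mrps6 (ENSMUSG00000039680, mm10 chromosome 16, 92058270 to 92112227, plus strand), the counterpart of bacterial small subunit protein S6, had the largest change of all members. It stood at 27.8, 25.6, 31.8 and 18.7 FPKM in KLF10AKO libraries, against 84.6, 86.7, 84.1 and 67.6 FPKM in WT libraries. The groups did not overlap, and in WT Mrps6 had the highest mean FPKM of all members. Its log2 change was -1.64 (SE 0.156, 95% interval -1.99 to -1.28), a fall of 3.11-fold (limma adjusted p = 1.42e-05, exact permutation p = 0.0286). That permutation p is the smallest that 4 against 4 can give. When KLF10AKO was reduced to replicate 4, the library low in muscle markers, the change was -2.08. Of the Mrps6 exon bases 19.9% also belong to Gm49711 (AC144408.3 in the deposited table) on the same strand in GENCODE M21, a gene with 0 to 5 reads in a library.

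Adipocyte markers moved alongside Mrps6. Their median log2 change was -1.70, and after scaling to them Mrps6 had a log2 change of -0.04 (limma adjusted p = 0.692). Within KLF10AKO, replicate 3 was highest and replicate 4 lowest both for Mrps6 and for the summed markers, which came to 5702, 5630, 6292 and 5009 FPKM in replicates 1 to 4. The summed skeletal muscle markers, endothelial markers (269, 267, 291 and 251 FPKM), fibroblast and progenitor markers (195, 187, 239 and 155 FPKM) and nuclear respiratory genes were likewise highest in replicate 3 and lowest in replicate 4. Of the endothelial markers 5 of 6 were lower in KLF10AKO, at a median of -0.93, and of the fibroblast and progenitor markers 6 of 7 were lower and 1 higher, at a median of -1.02. Slc5a3, which encodes a sodium and myo-inositol transporter, starts inside the Mrps6 window shown above and lies within the Mrps6 gene on the same strand; it was named after its values were seen. Slc5a3 had 5.68, 5.92, 7.76 and 4.24 FPKM in KLF10AKO libraries, against 17.0, 19.0, 18.9 and 15.3 FPKM in WT libraries, a log2 change of -1.52 (limma adjusted p = 2.27e-05), and 0.01 after adipocyte marker scaling. Exon bases shared by Mrps6 and Slc5a3 are not given here, so the values of these genes may not be independent. The part of these cell types in both changes was not tested.

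The other members with the largest falls were Mrps34, Mrpl27, Mrpl17, Mrpl50 and Mrpl20, all lower in every KLF10AKO library than in any WT library. Mrpl27, the counterpart of bacterial L27, which reaches towards the peptidyl transferase centre in bacteria, stood at 31.7, 34.0, 35.4 and 30.4 FPKM in KLF10AKO, against 57.4, 61.9, 61.1 and 57.1 FPKM in WT. Its values were tight in both groups, with means of 32.9 ± 2.23 and 59.4 ± 2.47 FPKM (SD, n = 4 each), and its log2 change was -0.84 (SE 0.0637, limma adjusted p = 3.27e-06). Mrpl17, the counterpart of bacterial L17, stood at 5.39, 4.87, 6.07 and 4.40 FPKM in KLF10AKO, against 8.28, 11.2, 9.16 and 8.81 FPKM in WT. It is a member of low level that fell by 0.79 on the log2 scale (SE 0.115, limma adjusted p = 2.10e-04). Mrpl50, a large subunit protein found in mitochondria alone, stood at 10.5, 11.5, 11.1 and 10.1 FPKM in KLF10AKO, against 18.3, 17.8, 19.4 and 15.9 FPKM in WT (log2 change -0.69, limma adjusted p = 2.52e-05). Mrpl20, the counterpart of bacterial L20, an early binder in bacterial large subunit assembly, had means of 24.8 ± 3.72 FPKM in KLF10AKO and 39.3 ± 4.15 FPKM in WT (SD, n = 4 each; log2 change -0.66, limma adjusted p = 8.92e-04).

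Mrps34, a small subunit protein of mitochondria alone whose human gene is mutated in a form of Leigh syndrome, stood at 11.1, 9.60, 10.4 and 10.1 FPKM in KLF10AKO, against 17.5, 25.0, 16.2 and 19.9 FPKM in WT. The groups did not overlap and the log2 change was -0.88 (SE 0.124, limma adjusted p = 1.72e-04). In the GENCODE M21 annotation 77.8% of the Mrps34 exon bases also belong to other genes, mostly to Mapk8ip3 on the opposite strand. Mapk8ip3 averaged 10.7 ± 0.979 FPKM in KLF10AKO and 9.0 ± 0.852 FPKM in WT (SD, n = 4 each), a log2 change of 0.24. Whether the counting used strand is not given in the sources used here, so reads of the overlapping genes may not have been told apart. After adipocyte marker scaling Mrps34, Mrpl27, Mrpl17, Mrpl50 and Mrpl20 were higher in KLF10AKO by 0.67, 0.75, 0.71, 0.86 and 0.93.

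The 6 members with the largest rises whose groups did not overlap were Mrpl24, Mrpl23, Mrpl19, Mrpl47, Mrps16 and Mrps9. In bacteria the counterparts of Mrpl23, Mrpl24 and Mrpl47 (L23, L24 and L29) sit around the exit of the peptide tunnel. Mrpl24 stood at 33.4, 31.3, 29.0 and 33.6 FPKM in KLF10AKO, against 21.5, 26.0, 21.5 and 21.4 FPKM in WT (log2 change 0.49, SE 0.0813, limma adjusted p = 5.27e-04). Mrpl23 stood at 9.18, 9.22, 9.80 and 8.97 FPKM in KLF10AKO, against 7.34, 6.64, 7.70 and 6.12 FPKM in WT (log2 change 0.40, SE 0.0758, limma adjusted p = 0.00117). In WT, means were 22.6 ± 2.28 FPKM for Mrpl24, with replicate 2 above the other WT libraries, and 6.95 ± 0.704 FPKM for Mrpl23 (SD, n = 4 each). Mrpl47 was at the bottom of the range of levels, with 2.64, 3.04, 2.66 and 3.42 FPKM in KLF10AKO, against 2.15, 1.89, 2.44 and 2.57 FPKM in WT (log2 change 0.32, limma adjusted p = 0.0264). Of its exon bases 24.2% are shared with other genes, mostly with Ndufb5 on the opposite strand, a complex I subunit gene at 8.37 to 12.2 FPKM in KLF10AKO and 11.4 to 16.6 FPKM in WT (log2 change -0.40, limma adjusted p = 0.0281).

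Mrpl19, the counterpart of bacterial L19, which sits at the interface of the subunits, stood at 3.79, 3.81, 3.05 and 3.26 FPKM in KLF10AKO, against 2.44, 2.64, 2.68 and 2.34 FPKM in WT (log2 change 0.39, limma adjusted p = 0.00280). Of its exon bases 36.0% are shared with Gcfc2 on the opposite strand, which averaged 1.07 ± 0.138 FPKM in KLF10AKO and 0.689 ± 0.168 FPKM in WT (SD, n = 4 each). Mrpl24 shares 26.3% of its exon bases with Rrnad1, also on the opposite strand, which rose by 0.81 (limma adjusted p = 2.75e-05). Mrps16, the counterpart of bacterial S16, whose human gene is mutated in a disorder of mitochondrial translation, stood at 12.1, 12.9, 12.6 and 12.9 FPKM in KLF10AKO, against 10.2, 9.91, 11.0 and 9.92 FPKM in WT (log2 change 0.29, limma adjusted p = 0.00127). Mrps9, the counterpart of bacterial S9, averaged 8.58 ± 0.467 FPKM in KLF10AKO and 7.25 ± 0.317 FPKM in WT (SD, n = 4 each; log2 change 0.23, limma adjusted p = 0.00696). With quantile normalization Mrpl19, Mrpl47 and Mrps9 did not pass (limma adjusted p = 0.234, 0.788 and 0.453).

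**Figure D3:**
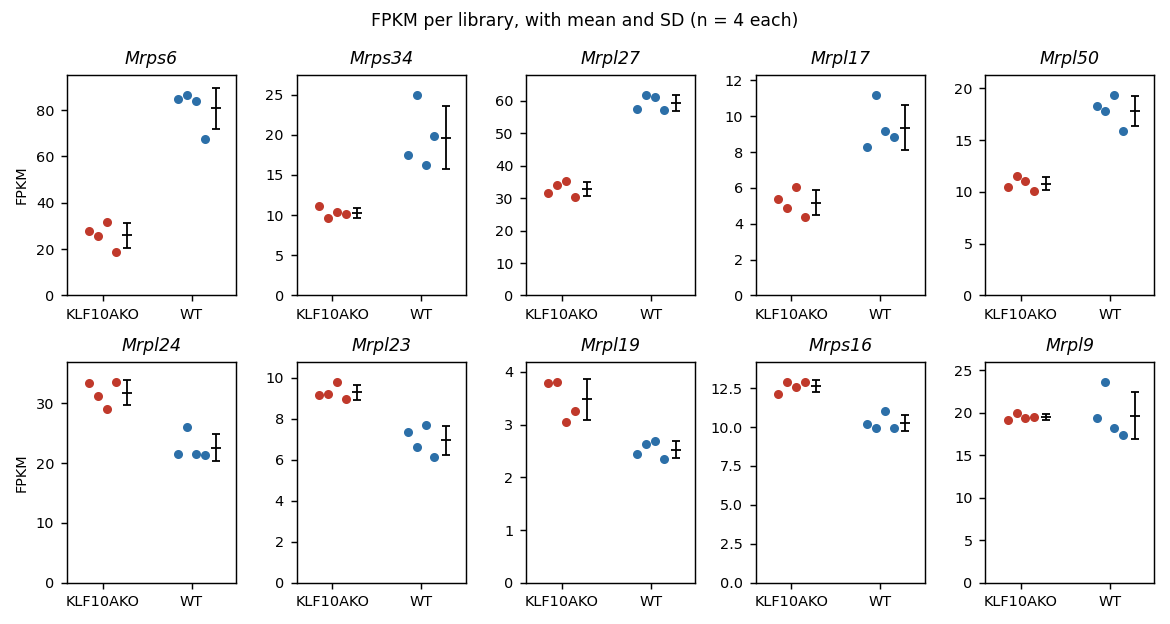
FPKM of 10 members in each library, KLF10AKO in red and WT in blue, with the mean and SD of each group (n = 4) in black on axes that start at 0. The first 5 panels show members whose KLF10AKO values all lie below WT, the next 4 members whose KLF10AKO values all lie above WT, and Mrpl9 a member whose groups overlap.

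The most abundant members, by mean FPKM over all 8 libraries, were Mrps21, Mrpl34, Mrps6 and Mrpl54. Mrps21, the counterpart of bacterial S21, stood at 58.5, 63.5, 64.5 and 48.6 FPKM in KLF10AKO, against 75.6, 99.8, 79.3 and 62.5 FPKM in WT. The groups overlapped, and its log2 change of -0.42 passed in limma (adjusted p = 0.0272) with an exact permutation p of 0.0857. Mrpl34, the counterpart of bacterial L34, averaged 49.2 ± 4.56 FPKM in KLF10AKO and 66.4 ± 11.8 FPKM in WT (SD, n = 4 each; log2 change -0.42, limma adjusted p = 0.0162). The groups of Mrpl34 overlapped as well (exact permutation p = 0.0857). Mrpl54, a protein of mitochondria alone, averaged 44.4 ± 5.38 FPKM in KLF10AKO and 51.1 ± 7.05 FPKM in WT (SD, n = 4 each) and did not pass (limma adjusted p = 0.165). Levels per length spanned 23.2-fold among the tested members in KLF10AKO, between Mrps22 at 2.53 FPKM and Mrps21 at 58.8 FPKM, and 35.7-fold in WT, between Mrpl47 at 2.26 FPKM and Mrps6 at 80.8 FPKM. The members' median was 12.5 FPKM in KLF10AKO and 15.4 FPKM in WT.

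The 25 members of highest mean level (20.9 to 69.1 FPKM) had 2 higher and 14 lower calls and a median log2 change of -0.30. The 27 members of middle level had 2 higher and 11 lower calls at a median of -0.14, and the 25 members of lowest level (2.60 to 8.12 FPKM) had 4 higher and 9 lower calls at -0.05. Calls of all genes were not counted in the same bands of level. Over all levels, 39.4% of all genes tested were higher and 34.9% lower. Across the 77 members Spearman's rho of mean FPKM with log2 change was -0.32, and that of gene length with log2 change 0.26. Gene length and mean FPKM were themselves tied at a rho of -0.84, the points share the same libraries, and over all 16012 genes the rho of mean FPKM with log2 change was -0.11. These correlations are across genes, which are not independent replicates, and describe these libraries.

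**Figure D4:**
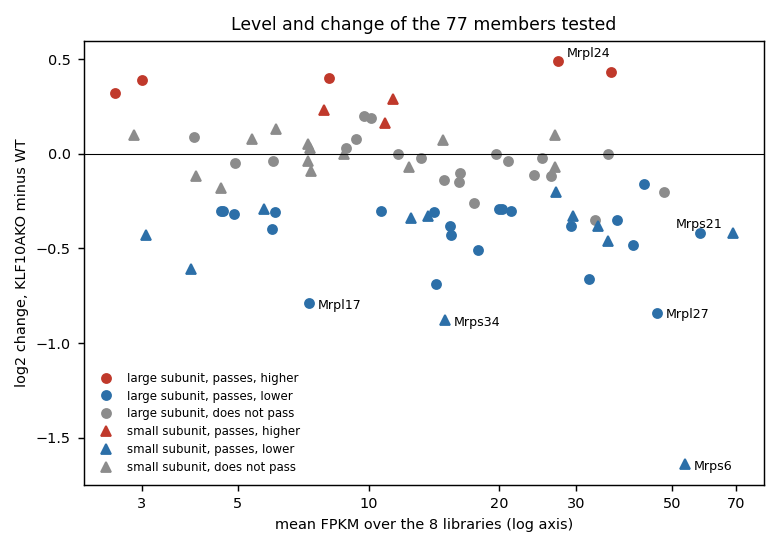
Each point is 1 of the 77 members tested, at its mean FPKM over the 8 libraries (log axis) and its log2 change (KLF10AKO minus WT), with circles for Mrpl and triangles for Mrps names and colours for the call. Mrps6 stands at the lower right and Mrpl24 highest; more of the members above 20 FPKM lie below 0 than above it on the scale of the authors' FPKM.

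Both subunits held members that passed in each direction. By name, 5 of 48 tested large subunit members were higher and 22 lower at a median log2 change of -0.18, and 3 of 29 small subunit members were higher and 12 lower at -0.09. Some names do not give the place of the protein: in the structure Mrps30 and Mrps18a belong to the large subunit, and Mrps36 is a subunit of the 2-oxoglutarate dehydrogenase complex. Sorted by structure, 5 of 50 large subunit members were higher and 22 lower at -0.16, and 3 of 26 small subunit members were higher and 12 lower at -0.13. Members with a bacterial counterpart (46 tested, 6 higher, 21 lower) and members of mitochondria alone (28 tested, 2 higher, 13 lower) both had a median of -0.17. Mrps18a and Mrps18b, sorted apart as paralogues like bacterial S18, and Mrps36 are in neither class. TPM and voom turned the medians of both subunits to above 0.

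The FPKM of the large subunit summed to 2.22, 2.26, 2.08 and 2.29 times that of the small subunit in KLF10AKO libraries, against 1.97, 1.93, 1.99 and 2.02 times in WT libraries. The ranges of this ratio did not overlap. With Mrps6 left out of the small subunit the ratios were 2.39, 2.42, 2.25 and 2.42 in KLF10AKO, against 2.37, 2.30, 2.37 and 2.38 in WT, and the ranges overlapped. Leaving out Mrps6 was chosen after its values were seen.

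Mrps30 averaged 3.82 ± 0.364 FPKM in KLF10AKO and 4.18 ± 0.337 FPKM in WT, and Mrps36 averaged 12.1 ± 1.63 FPKM in KLF10AKO and 12.7 ± 1.89 FPKM in WT (SD, n = 4 each), and neither passed (limma adjusted p = 0.235 and 0.615). The paralogues Mrps18a, Mrps18b and Mrps18c all derive from the family of bacterial S18, with Mrps18a placed in the large subunit and the others in the small. Their log2 changes were 0.00, 0.13 and 0.07, with 95% intervals of -0.17 to 0.17, -0.18 to 0.43 and -0.24 to 0.38, and none of the 3 passed. Mrps18a, Mrpl9, Mrpl43 and Mrpl46 were the members with changes nearest 0. Mrpl9 stood at 19.1, 20.0, 19.4 and 19.5 FPKM in KLF10AKO, against 19.4, 23.6, 18.2 and 17.4 FPKM in WT (95% interval of the log2 change -0.20 to 0.20). Mrpl43 had an interval of -0.17 to 0.17 and Mrpl46 one of -0.16 to 0.17. Mrpl43 shares 33.4% of its exon bases with Twnk on the opposite strand, which rose by 0.28 (limma adjusted p = 0.0171). Mrps18b shares 30.5% with Gm16279 on the opposite strand, which rose by 0.92 (limma adjusted p = 3.12e-04). Mrps18c shares 23.2% with Gm43511 on the same strand, which was under the filter.

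Members with roles beyond the core of the ribosome were read by name. Mrpl12 and Mrpl10 form the stalk that recruits translation factors; Mrpl12 averaged 18.1 ± 1.03 FPKM in KLF10AKO and 22.4 ± 3.21 FPKM in WT (SD, n = 4 each; log2 change -0.29, limma adjusted p = 0.0324). The groups of Mrpl12 overlapped (exact permutation p = 0.0857). Mrpl10 stood at 22.8, 26.7, 25.3 and 26.5 FPKM in KLF10AKO, against 31.9, 33.3, 34.2 and 32.6 FPKM in WT, and its groups did not overlap (log2 change -0.38, limma adjusted p = 5.14e-04). Mrpl45, which holds the ribosome to the inner membrane near the tunnel exit, averaged 13.3 ± 1.38 FPKM in KLF10AKO and 17.4 ± 0.995 FPKM in WT (SD, n = 4 each; log2 change -0.38, limma adjusted p = 0.00255). Mrpl58, a peptidyl-tRNA hydrolase that is built into the large subunit and can free stalled ribosomes, averaged 9.63 ± 0.442 FPKM in KLF10AKO and 9.11 ± 0.627 FPKM in WT (SD, n = 4 each) and did not pass (limma adjusted p = 0.303). The log2 changes of Mrpl12, Mrpl10 and Mrpl45 turned to 1.28, 1.21 and 1.18 after adipocyte marker scaling. None of these passed with TPM (limma adjusted p = 0.511, 0.193 and 0.222) or with voom (limma adjusted p = 0.526, 0.0625 and 0.0929).

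Mrps12, the counterpart of the decoding protein S12, shares its promoter region with Sars2, which encodes the mitochondrial seryl-tRNA synthetase; the genes run in opposite directions from starts 172 bases apart. Mrps12 stood at 27.2, 24.9, 31.0 and 21.8 FPKM in KLF10AKO, against 35.3, 31.6, 33.8 and 30.6 FPKM in WT (log2 change -0.33, limma adjusted p = 0.0174). Its groups overlapped (exact permutation p = 0.0571). Sars2 stood at 5.79, 5.12, 5.01 and 6.29 FPKM in KLF10AKO, against 2.67, 2.23, 2.55 and 2.77 FPKM in WT (log2 change 0.98, limma adjusted p = 1.21e-05). The neighbours differed in direction by FPKM, while Mrps12 did not pass with TPM (limma adjusted p = 0.341) and had a change of 1.26 with adipocyte marker scaling. In all, 18 of 78 members (23.1%) had the start of another protein-coding gene within 1000 bases upstream, running in the opposite direction. The share was 9.76% of 12841 protein-coding genes tested. Pairs whose starts overlap, such as Mrps7 with Gga3, were not counted. Of 17 counted pairs with a tested neighbour, 1 passed in the same direction on both sides (5.88%) and 6 in opposite directions (35.3%). Over all 552 pairs of protein-coding genes tested, counted in the same way, the shares were 32.4% and 19.0%. The opposite pairs numbered 6 with quantile normalization, 2 with TPM and with voom (11.8%, against 11.4% and 15.9% of all pairs), and 0 with adipocyte marker scaling. Among those 6, chosen for this description after their values were seen, were Mrpl49 (-0.29) with Fau (1.76), which encodes a protein of the cytosolic ribosome, and Mrpl40 (-0.51) with Hira (0.62), a histone chaperone.

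Mrpl53 had 0 reads in all 8 libraries. In GENCODE M21, 695 of its 790 exon bases (88.0%) also belong to Gm42688 on the same strand, which had 0.562 to 0.858 FPKM in KLF10AKO and 0.0938 to 0.257 FPKM in WT and did not reach the filter. Reads from the shared bases cannot be given to Mrpl53 alone, so its 0 is a count of reads assigned to it and not a measure of its transcript. Exon bases shared with another gene were found for 33 of the 78 members and reached at least 50% in Mrpl53, Mrps34 and Mrps25. Mrps25, a small subunit protein that passed as lower (log2 change -0.61, limma adjusted p = 0.00200), shares 69.8% with Nr2c2 on the opposite strand, whose log2 change of 0.21 did not pass.

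On the scale of the authors' FPKM the members' median change lay nearer 0 than those of 3 other gene groups of ribosomes and respiration, a description with no test of the difference. Cytosolic ribosomal protein genes, which make the ribosome for all nuclear transcripts, were higher in KLF10AKO in 85 of 88 tested and lower in 1, with a median log2 change of 1.43. Nuclear genes of the respiratory chain and ATP synthase were higher in 5 of 92 and lower in 67, with a median of -0.55, and of -0.83 when KLF10AKO was reduced to replicate 4 (1 higher, 64 lower). The 13 mitochondrial genome transcripts, the products that the mitochondrial ribosome translates, passed in 7 of 13, all lower, with a median of -0.73. These transcripts summed to 22716, 22980, 26109 and 19813 FPKM in KLF10AKO, against 42604, 23343, 46447 and 45259 FPKM in WT. The sum of WT replicate 2 thus lay within the range of the KLF10AKO libraries. Without it 13 of 13 passed as lower, at a median of -1.02. WT replicate 2 was picked for leaving out after its values were seen, so this count is a description and adds no support. With quantile normalization 3 of 13 were lower and none higher, at a median of -0.08, which is nearer 0 than the -0.24 of the members. Adipocyte marker scaling turned the medians of these 2 respiratory groups to 1.04 and 0.87, both below the 1.41 of the members.

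In each library the median member stood at -0.19, -0.13, -0.11 and -0.22 on the log2 scale relative to the WT mean in KLF10AKO replicates 1 to 4, and at -0.01, 0.04, 0.10 and -0.09 in WT replicates 1 to 4. KLF10AKO replicate 4 was the lowest of its group for 39 of the 77 members, replicate 3 the highest for 38, and WT replicate 4 the lowest of its group for 47. The FPKM of the members summed to 0.203, 0.208, 0.185 and 0.224 times that of the nuclear respiratory genes in KLF10AKO, against 0.155, 0.151, 0.149 and 0.153 times in WT. That ratio, which does not depend on scaling between libraries, was higher in every KLF10AKO library than in any WT library. Against cytosolic ribosomal protein genes the members summed to 0.0294 to 0.0430 times in KLF10AKO and 0.112 to 0.121 times in WT.

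**Figure D5:**
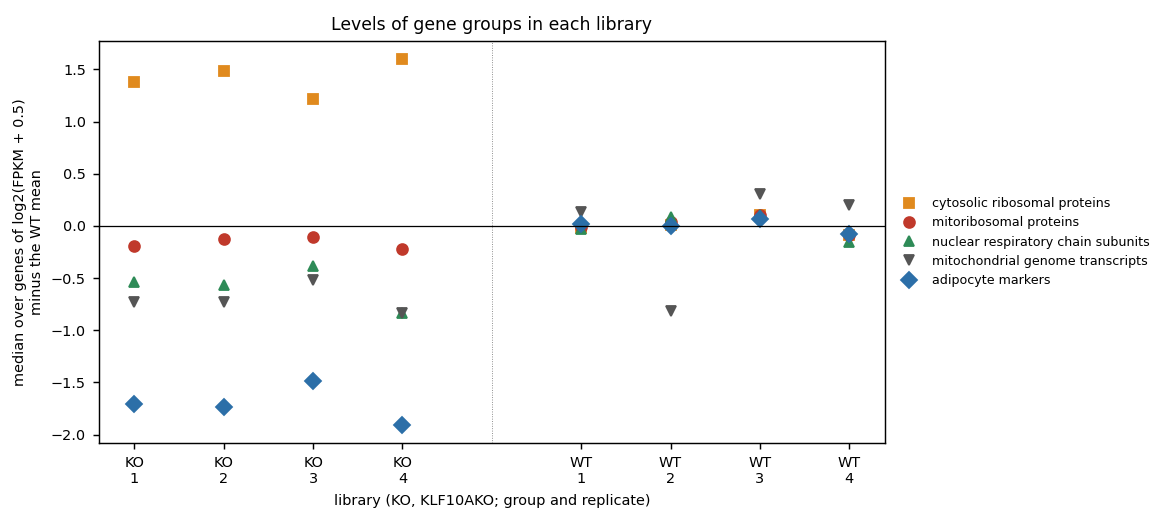
Points are the median over genes of log2(FPKM + 0.5) minus its WT mean for 5 gene groups in each library, KLF10AKO (KO) on the left and WT on the right. The members (red circles) lie between -0.22 and -0.11 in KLF10AKO, between the cytosolic ribosomal protein genes above 0 and the respiratory groups and adipocyte markers below, and the mitochondrial genome transcripts of WT replicate 2 lie with those of KLF10AKO.

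Genes that act with the mitochondrial ribosome were read from lists of known function, and their counts depended on the scaling. Among all genes tested, 39.4% were higher and 34.9% lower by FPKM, and 44.0% and 25.4% with TPM. The shares were 46.2% and 27.5% with voom, and 30.9% and 44.1% with quantile normalization. With adipocyte marker scaling 86.9% of all genes tested were higher and 1.39% lower. By that scaling 5 of 5 other ribosome proteins, 25 of 25 assembly factors and 13 of 13 translation factors were higher. So were 19 of 20 genes that charge transfer RNAs, 18 of 19 genes for mitochondrial DNA expression and 9 of 9 biogenesis regulators. Among 5 other ribosome proteins, whose symbols do not start with Mrp, 1 passed, the small subunit protein Aurkaip1, at 41.2, 42.1, 45.3 and 42.1 FPKM in KLF10AKO against 57.1, 56.2, 58.3 and 50.2 FPKM in WT (log2 change -0.37, limma adjusted p = 6.03e-04). With quantile normalization 2 of the 5 were lower, and with TPM none was lower and 1 was higher. Of 25 assembly factors 7 were higher and 5 lower, at a median of 0.08. The assembly factors had 11 higher and 2 lower with TPM, 14 and 3 with voom, and 5 and 9 with quantile normalization (median -0.12). Mettl17, an assembly factor of the small subunit, stood at 11.7, 11.2, 10.9 and 14.8 FPKM in KLF10AKO, against 4.49, 4.68, 3.63 and 3.86 FPKM in WT (log2 change 1.43, limma adjusted p = 4.29e-06), and Rpusd4, a pseudouridine synthase of mitochondrial RNA, rose by 0.50. Mpv17l2, an inner membrane protein needed for assembly, stood at 21.6, 22.3, 21.4 and 20.0 FPKM in KLF10AKO, against 40.2, 41.1, 45.4 and 32.2 FPKM in WT (log2 change -0.87, limma adjusted p = 4.41e-05), and the GTPase Mtg1 fell by 0.42.

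Of 13 tested translation factors 6 were higher and 5 lower, at a median of 0.14. With TPM 8 were higher and 1 lower (median 0.35), with voom 8 and 2, and with quantile normalization 2 and 5 (median -0.09). Mtif2, the initiation factor, rose by 0.35 and Oxa1l, which inserts new proteins into the inner membrane, by 0.29 (limma adjusted p = 0.00298 and 5.16e-04). The recycling factor Mrrf fell by 0.69 and the release factor Mtrf1 by 0.46 (limma adjusted p = 2.85e-05 and 0.00141). Of 20 genes that charge mitochondrial transfer RNAs 10 were higher and 5 lower, at a median of 0.24. With TPM 11 were higher and 3 lower, with voom 12 and 4, and with quantile normalization the balance turned to 4 higher and 8 lower (median -0.01). Qrsl1, a subunit of the amidotransferase that makes glutaminyl-tRNA, rose by 0.96 beside Sars2, while the isoleucyl synthetase Iars2 fell by 0.63.

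Genes for the expression of mitochondrial DNA were higher in 11 of 19 and lower in 5, at a median of 0.32. They numbered 12 higher and 2 lower with TPM, 13 and 2 with voom, and 7 and 6 with quantile normalization (median 0.08). Tfam, which packages mitochondrial DNA and starts its transcription, stood at 13.6, 14.2, 12.1 and 13.8 FPKM in KLF10AKO, against 6.89, 8.32, 6.62 and 7.07 FPKM in WT (log2 change 0.85, limma adjusted p = 1.49e-05), and the RNA-degrading enzyme Pnpt1 rose by 1.03. Hsd17b10, a dehydrogenase that is also a subunit of mitochondrial RNase P, fell by 0.79 and the elongation factor Tefm by 0.53. Of 9 regulators of mitochondrial biogenesis 6 passed, all higher, at a median of 0.48 (5 higher and 2 lower with quantile normalization), with Gabpa, the ETS factor of the motif above, and Ppargc1a among the 3 that did not pass (limma adjusted p = 0.208 and 0.148). Myc, a growth factor-induced transcription factor, stood at 19.0, 18.5, 17.0 and 19.9 FPKM in KLF10AKO, against 3.62, 3.41, 3.73 and 3.13 FPKM in WT (log2 change 2.26, limma adjusted p = 1.95e-08), and Pprc1, a coactivator of the PGC-1 family, rose by 0.99. Lymphocyte markers were higher and adipocyte markers lower in the same libraries, and their part in these changes was not tested. After adipocyte marker scaling the named partner genes that were lower by FPKM had log2 changes above 0, among them Aurkaip1 at 1.22, Mpv17l2 at 0.71, Mrrf at 0.75, Iars2 at 0.90 and Hsd17b10 at 0.81.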

How the data were processed

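Poly(A)-selected RNA of 8 iWAT libraries (4 KLF10AKO, 4 WT) was sequenced, per the labels' protocols. HISAT2 2.0.5, featureCounts 1.5.0-p3, edgeR 3.22.5 and the mm10 genome are named in the submitters' processing notes, with no role for each; neither the annotation nor the strand setting is given there. The deposited values are the authors' FPKM with gene lengths. FPKM times length was a whole multiple of 1 step per library for 100% of values (within 0.01 of a read), so reads were recovered. They came to 0.901 to 0.939 times the size implied by the step in KLF10AKO and 1.05 to 1.09 times in WT.

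limma 3.58.1 in R 4.3.3 (lmFit, eBayes with trend, no covariate) was fitted to log2(FPKM + 0.5) of 16012 genes (mean FPKM at least 0.5), with two-sided tests and Benjamini-Hochberg adjustment over all of them. A fold change on this scale understates the change of low genes. An exact two-sided permutation test of the 8 values was run for each named gene. The fit was run on simulated data in which few genes changed, each by more than nearly all members did here. That setting differs from these data, so the run does not bear on the results of the members. The labels' replicate numbers did not pair the libraries. The members and gene lists were chosen with earlier results of these data known. Named were Klf10, the 6 largest passing changes in each direction with groups that do not overlap, the 4 highest levels, the 4 changes nearest 0, members under the filter, members of known role or misleading name, and the 2 genes of lowest p in each direction from each list of partners; 1 partner gene that the rule names is not reported here. Alternatives were other pseudocounts, filters and scalings, a replicate block, limma's voom on the recovered reads, leaving out each library, and KLF10AKO reduced to replicate 4. Scaling to the mean of the members was added after seeing the data.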

Additional observations from a re-analysis of the deposited data

Results flagged for a closer look

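In 4 of 96 groups of 4 libraries, 1 value lay far from the other 3, and chance gives about 5% of such groups. Mrpl24 stood at 26.0 FPKM in WT replicate 2, where the other WT libraries had 21.4 to 21.5 FPKM, and its groups did not overlap with that library in. Mrps6 stood at 67.6 FPKM in WT replicate 4, against 84.1 to 86.7 FPKM in the others, and still above every KLF10AKO library. Mrpl54 stood at 36.4 FPKM in KLF10AKO replicate 4, against 46.6 to 47.8 FPKM in the others. Rpusd4, the pseudouridine synthase, stood at 8.16 FPKM in KLF10AKO replicate 4, against 9.24 to 9.31 FPKM in the others.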

How the results depend on the processing

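Pseudocounts, filters and protein-coding genes alone left the counts of members within 1.5 times of 8 higher and 34 lower. The scaling between libraries did not, and the cause was not tested. The higher count was 14 with TPM, 23 with voom, 4 with quantile normalization, 76 with adipocyte marker scaling and 17 with scaling to the members, and the lower count was 8, 9, 41, 0 and 14 in the same order, the 0 with Mrps6 as the sole member not passing. The member median turned to 0.05, 0.07 and 1.41 with TPM, voom and adipocyte marker scaling and moved to -0.24 with quantile normalization, the large subunit median to 0.03, 0.04, 1.40 and -0.26, and the small subunit median to 0.11, 0.12, 1.41 and -0.23. With KLF10AKO replicate 4 alone, assumed to vary like WT, 3 members were higher and the medians were -0.22, -0.27 and -0.22.

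A change counts as turned here where its sign flips and it passes in at least 1 of the fits. Under adipocyte marker scaling Klf10 turned to 0.67, and the other named genes that turned had log2 changes as follows: Mrps34 0.67, Mrpl27 0.75, Mrpl17 0.71, Mrpl50 0.86, Mrpl20 0.93, Mrps21 1.18, Mrpl34 1.18, Mrpl54 1.40, Mrps30 1.31, Mrps36 1.47, Mrpl12 1.28, Mrpl10 1.21, Mrpl45 1.18, Mrps12 1.26, Mrpl9 1.57, Aurkaip1 1.22, Mrrf 0.75, Mtrf1 0.93, Mpv17l2 0.71, Mtg1 1.09, Iars2 0.90, Hsd17b10 0.81 and Tefm 0.98. No other setting turned a named gene.

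Leaving out each library in turn gave 5 to 8 higher and 27 to 37 lower members, with 5 higher without WT replicate 1 or KLF10AKO replicate 2. Of all genes tested, 70.6% to 74.1% were called in these fits, against 74.3% with every library in. Medians ran between -0.18 and -0.12 for all members, -0.23 and -0.14 for the large subunit, and -0.17 and -0.06 for the small, and the Klf10 change between -0.92 and -0.81. Of 376 values of named genes in these fits, 15 no longer passed and 0 turned. Same-numbered libraries did not deviate together, with correlations of 0.0030 to 0.031. The replicate block gave 8 higher and 34 lower members and changed no call of a named gene. Intervals and read counts cover the spread between these libraries and counting error alone.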

Other observations

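Genes outside the protein-coding rule were read as values. Of 5 pseudogenes named for members, Mrpl23-ps1 had 1.33 to 2.09 FPKM in KLF10AKO and 0.587 to 2.07 FPKM in WT and did not pass (limma adjusted p = 0.0903). Mrpl48-ps and Mrps36-ps1 did not pass either (limma adjusted p = 0.116 and 0.334), Mrps36-ps2 was under the filter, and Mrps36-ps3 had 0 reads in every library. Lars2, the mitochondrial leucyl-tRNA synthetase, stood at 3.76, 3.82, 4.01 and 3.45 FPKM in KLF10AKO, against 137, 6.0, 4.72 and 4.17 FPKM in WT replicates 1 to 4. WT replicate 1 alone sets that mean, the log2 change of -1.51 did not pass (SE 0.975, limma adjusted p = 0.188), and Lars2 was named here after its values were seen.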
